A study of Mus musculus with 6 samples.

Results

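NMDA receptors are the glutamate-gated channels whose subunits are encoded by Grin1, Grin2a, Grin2b, Grin2c, Grin2d, Grin3a and Grin3b. These 7 genes were taken by symbol from the array annotation, with every probe set assigned to exactly 1 of them, and a gene was read from whichever of its probe sets was brightest on average over the 6 arrays. A probe set is the group of array probes that reports a transcript. Of the 7 genes, 6 were represented, by 9 probe sets, among 22180 genes tested in all, and Grin1 was not analysed here. The samples were total RNA from mouse cerebellum at postnatal day 7, hybridised to Affymetrix arrays. There were 3 arrays of Crebbp knockout tissue (Math1Cre::CrebbpFl/Fl, with both Crebbp alleles floxed) and 3 of wild-type tissue (Math1Cre with wild-type Crebbp), so both groups carried the Cre transgene. Math1 (Atoh1) drives Cre in granule neuron precursors, so the tissue also holds cells in which Crebbp is intact, and CREBBP is a lysine acetyltransferase and coactivator of CREB. The comparison asked how loss of Crebbp from that lineage changes expression in the developing cerebellum. No label says that each array came from its own animal, so the p-values rest on the spread among these arrays alone, and that spread may be technical.

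Each NMDA receptor combines obligatory GluN1 subunits, which bind glycine, with GluN2 subunits, which bind glutamate, or with GluN3 subunits, which bind glycine and lower calcium entry. Granule neurons express Grin2b while they are immature and migrating, and Grin2a and Grin2c come up as they mature and receive mossy fibre input. The receptor is held at the synapse by scaffolds of the PSD-95 family, and the calcium it admits acts through calmodulin-dependent kinases, calcineurin and CREB.

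Values are log2 expression from the deposited table, so a difference of 1 is a doubling. Array medians ran from 7.25 to 7.29 in knockout and from 7.25 to 7.26 in wild type. Crebbp itself read 11.46, 11.42 and 11.32 in knockout and 11.96, 11.99 and 11.90 in wild type, and fell by 0.56 (SE 0.05, limma adjusted p = 0.000354). The choroid plexus transcript Ttr read 13.77, 9.19 and 13.92 in knockout and 12.30, 8.08 and 8.91 in wild type, and so lay above 10 on knockout arrays 1 and 3 and wild-type array 1. Counts and calls that are lost without those 3 arrays are stated beside the genes they concern. Across all genes 6.67% passed an adjusted p of 0.05 in either direction (3.94% fell and 2.72% rose), and "rose" and "fell" are used only of genes that passed. These shares are for all 6 arrays. With each array left out in turn, 366 to 800 genes fell and 199 to 478 rose, against 875 and 604 with all 6. Fewer genes also passed without the 3 arrays with high Ttr, so counts from such fits are not set against these shares. The median change over all 22180 genes was -0.003.

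Of the 6 subunit genes measured, 2 fell, 0 rose and 4 did not pass, beside 3.94% of all genes that fell. Both genes that fell, Grin2a and Grin2b, encode GluN2 subunits. The values of the knockout and wild-type arrays lay apart for these 2 genes and overlapped for the other 4, where 25% of all genes had groups that lay apart. The median change of the 6 was -0.15.

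**Figure D1:**
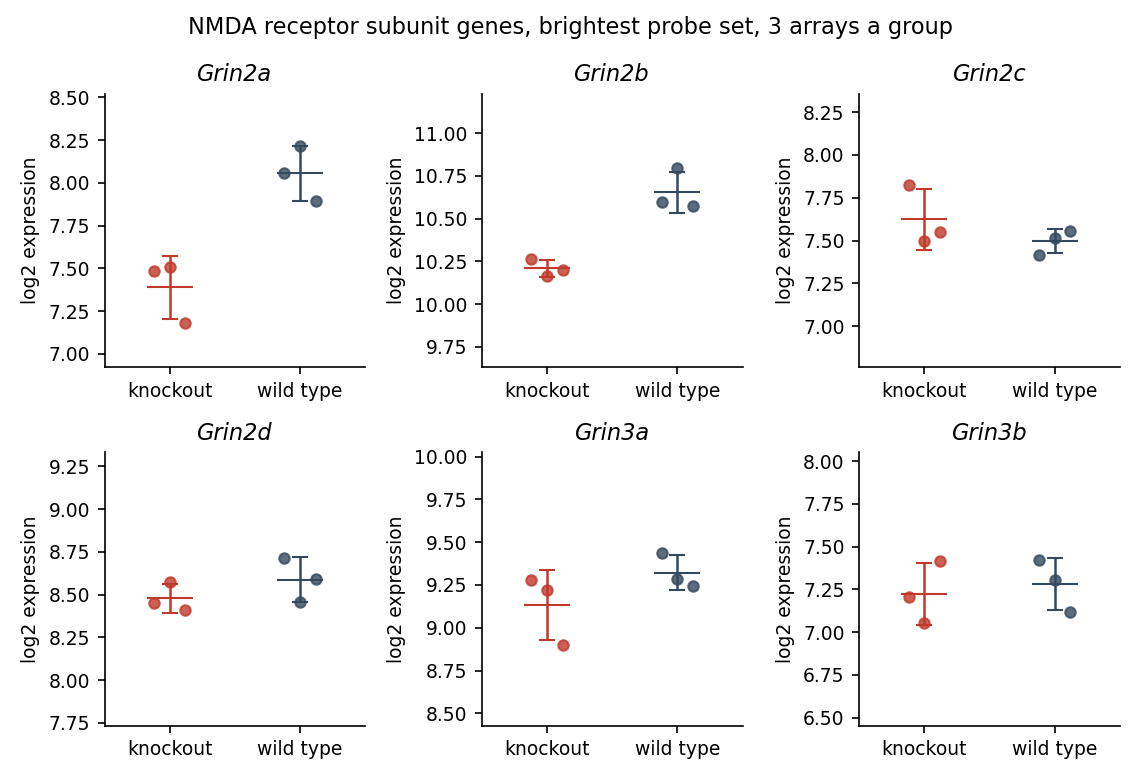
Log2 expression (vertical axis, the same span in each panel) of the 6 measured NMDA receptor subunit genes in knockout and wild-type cerebellum. Each point is an array, and bars give the mean and SD of 3 arrays. The groups are separate for Grin2a and Grin2b and overlap in the other panels.

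Grin2a encodes GluN2A, the subunit that joins receptors as neurons mature and speeds their closing. Its log2 value was 7.48, 7.51 and 7.18 on the knockout arrays and 8.06, 8.22 and 7.89 on the wild-type arrays. Every knockout array read below every wild-type array, and knockout array 3 was the lowest. The means were 7.39 ± 0.18 in knockout and 8.06 ± 0.16 in wild type (SD, n = 3 each). Grin2a fell by 0.67 on the log2 scale (SE 0.11, 95% CI -0.91 to -0.42, limma adjusted p = 0.00691), which is 1.59-fold lower. Among all 22180 genes, 0.356% had a lower change. Without the 3 arrays with high Ttr, which leaves 1 knockout and 2 wild-type arrays, the change was -0.55 and did not pass (adjusted p = 0.137).

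Grin2b encodes GluN2B, the subunit of immature and migrating granule neurons, with slow closing kinetics. Its log2 value was 10.26, 10.17 and 10.20 in knockout and 10.59, 10.79 and 10.57 in wild type. The knockout arrays lay close together, and all were below the lowest wild-type array. The means were 10.21 ± 0.05 in knockout and 10.65 ± 0.12 in wild type (SD, n = 3 each). Grin2b fell by 0.44 (SE 0.06, 95% CI -0.59 to -0.30, limma adjusted p = 0.00372), a 1.36-fold difference. Without the 3 arrays with high Ttr the change was -0.52 (adjusted p = 0.0599).

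A second probe set of Grin2b was dim. It read 5.78, 5.80 and 5.98 in knockout and 6.13, 5.86 and 5.81 in wild type, where the groups overlapped. Its change was -0.080 (SE 0.12, adjusted p = 0.781 over all probe sets, of which 6.71% passed). Its mean of 5.89 lay below the lower quartile of all array values, 6.02, and no detection call was used here. When both probe sets were averaged, the change of Grin2b was -0.26 (adjusted p = 0.0502). The sources used here do not say which exons a probe set covers.

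Grin2c encodes GluN2C, the subunit of mature granule neurons, which is less sensitive to magnesium block. Its log2 value was 7.83, 7.50 and 7.55 in knockout and 7.42, 7.51 and 7.55 in wild type. Only knockout array 1 read above the wild-type range. The change of 0.13 did not pass (SE 0.10, 95% CI -0.08 to 0.34, adjusted p = 0.521). It was 0.028 with knockout replicate 1 left out, against at most 0.19 with any other array left out, and -0.035 without the arrays with high Ttr. With all 6 arrays, the interval leaves out a fall as large as that of either Grin2a or Grin2b. A dim second probe set, with a mean of 5.41, had a change of -0.012 (adjusted p = 0.968).

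Grin2d encodes GluN2D, which closes most slowly of the GluN2 subunits and is found in cerebellar inhibitory interneurons. Its log2 value was 8.45, 8.57 and 8.41 in knockout and 8.72, 8.46 and 8.59 in wild type. Wild-type array 2 lay inside the knockout range, so the groups overlapped. The change was -0.11 (SE 0.08, 95% CI -0.28 to 0.06, adjusted p = 0.505). A second probe set with a mean of 6.81 differed by 0.0091 (SE 0.10, 95% CI -0.21 to 0.23, adjusted p = 0.975). For the brighter one, leaving out wild-type replicate 1 gave -0.045, leaving out wild-type replicate 2 gave -0.17, and leaving out the arrays with high Ttr gave 0.050.

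Grin3a encodes GluN3A, a subunit of juvenile brain that limits calcium entry and synapse maturation. Its log2 value was 9.28, 9.22 and 8.90 in knockout and 9.44, 9.29 and 9.24 in wild type. Knockout array 3 was low, while knockout array 1 lay inside the wild-type range. The change of -0.19 did not pass (SE 0.10, 95% CI -0.41 to 0.03, adjusted p = 0.314). Leaving out knockout replicate 3 gave -0.072, and leaving out the arrays with high Ttr gave -0.047. Grin3b encodes GluN3B, best known from motor neurons. It read 7.21, 7.05 and 7.41 in knockout and 7.42, 7.30 and 7.12 in wild type. Its groups covered nearly the same range, with a change of -0.06 (SE 0.11, adjusted p = 0.846).

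**Figure D2:**
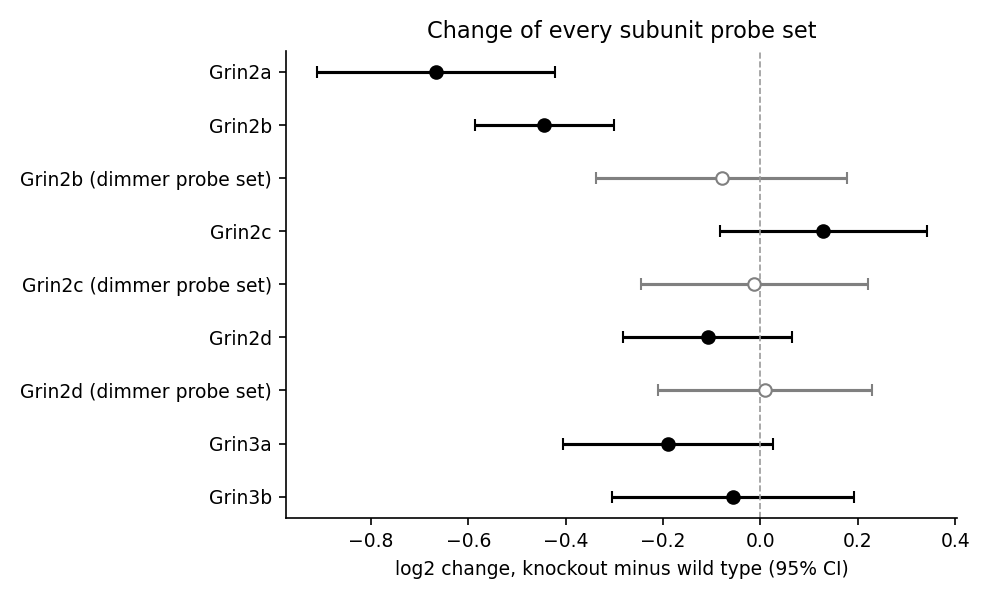
Log2 change, knockout minus wild type (horizontal axis), with its 95% confidence interval for each of the 9 subunit probe sets. Filled points are the brightest probe set of a gene and open points the dimmer one. The intervals of the brightest probe sets of Grin2a (-0.91 to -0.42) and Grin2b (-0.59 to -0.30) lie below 0, and the others cover it.

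The balance between subunits was followed as the difference of log2 values within an array, of which only the shift between groups is read. Of 6 pairs planned, 4 needed Grin1, so 2 were tested. Grin2c relative to Grin2b stood at -2.44, -2.67 and -2.65 in knockout and -3.18, -3.28 and -3.02 in wild type. Every knockout array was above every wild-type array, a shift of 0.57 (SE 0.11). This shift combines the Grin2b change of -0.44 with the Grin2c change of 0.13, which did not pass. It is therefore not independent of the fall of Grin2b. The exact two-sided permutation p was 0.1, the smallest that 3 arrays against 3 allow, and 0.2 after adjustment over the 2 pairs. Grin2a relative to Grin2b stood at -2.78, -2.66 and -3.02 in knockout and -2.54, -2.58 and -2.68 in wild type. The groups overlapped, and the shift of -0.22 (SE 0.11, exact permutation p = 0.2, adjusted p = 0.2) did not separate the 2 falls in size. It was -0.12 with knockout replicate 3 left out and ran from -0.30 to -0.19 with any other array left out. With a gene's probe sets averaged, these shifts were 0.32 and -0.40 (exact permutation p = 0.1 for each).

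The 3 genes whose profile over the 6 arrays was most like that of Grin2a, by the root mean square difference of profiles centred on their own means, were Zfpm2 (0.07), Tunar (0.07) and Rtn4r (0.07). Zfpm2 encodes a GATA cofactor and Rtn4r the Nogo receptor. Their changes were -0.61, -0.58 and -0.62. For Grin2b they were Pde9a (0.02), a cyclic GMP phosphodiesterase, Dpf3 (0.04), a BAF chromatin remodelling subunit, and Neurod2 (0.04), a neuronal bHLH factor. Their changes were -0.44, -0.43 and -0.39. With 6 arrays in 2 groups, any gene with a group difference of similar size is close on this measure.

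The mean values of the 2 lists of granule neuron markers were also lower in knockout. The mean log2 value of 13 markers of migrating granule neurons ran from 10.99 to 11.04 in knockout and from 11.28 to 11.36 in wild type. Of these markers 9 fell and 0 rose, with a median change of -0.25, beside 3.94% and 2.72% of all genes that fell and rose. Cntn2, an adhesion protein of young granule neurons, fell by 0.77. The mean of 12 markers of maturing granule neurons ran from 9.90 to 10.10 in knockout and from 10.30 to 10.58 in wild type. Of these 6 fell and 0 rose, with a median change of -0.34, among them Rbfox3 (NeuN), which fell by 0.52 (adjusted p = 0.102 without the arrays with high Ttr). Without the arrays with high Ttr, 2 markers of migrating and 2 of maturing granule neurons fell, and 4 of migrating granule neurons fell when wild-type replicate 1 was left out and 5 when knockout replicate 1 was. In bulk tissue, fewer cells of a type and less RNA per cell cannot be told apart. Of 10 precursor markers 3 rose and 2 fell, beside 2.72% and 3.94% of all genes. Their mean overlapped between groups (10.11 to 10.26 in knockout and 10.11 to 10.15 in wild type). Cxcr4 rose by 0.70 (limma adjusted p = 6.79e-05) and Sfrp1 fell by 0.64 (limma adjusted p = 0.000838). Both passed whichever array was left out. Of the precursor markers 1 rose and 1 fell without the arrays with high Ttr, and 1 fell when wild-type replicate 1 was left out.

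Other cell types that could carry or dilute the subunits were examined in the same way. Over all genes 3.94% fell and 2.72% rose with all 6 arrays, and fewer did with any array left out. The mean of 9 inhibitory interneuron markers was 9.31 to 9.52 in knockout and 9.35 to 9.42 in wild type, and 0 passed in the limma fit of all 6 arrays. Of these markers 2 rose when knockout replicate 3 was left out and 1 without the arrays with high Ttr. The mean of 9 Purkinje cell markers was 10.01 to 10.19 in knockout and 9.93 to 10.11 in wild type, where Lhx5 rose by 0.40 and Lhx1 fell by 0.38. The adjusted p of Lhx5 was 0.0553 with knockout replicate 1 left out and 0.0588 with wild-type replicate 2 left out, and that of Lhx1 was 0.228 without the arrays with high Ttr, where 2 Purkinje cell markers rose. For 11 markers of Bergmann glia and astrocytes the mean was 10.74 to 10.86 in knockout and 10.70 to 10.75 in wild type. Of them 3 rose and 1 fell, beside 2.72% and 3.94% of all genes. Gfap rose by 0.45 (limma adjusted p = 0.00459) and passed whichever array was left out. The number that rose was 1 when knockout replicate 2 or wild-type replicate 1 or 3 was left out and 1 without the arrays with high Ttr. The number that fell was 0 in those fits, and also with knockout replicate 3 or wild-type replicate 2 left out.

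Some of the remaining lists lay apart between the groups. With all 6 arrays, 3.94% of all genes fell and 2.72% rose. Over the 6 fits with an array left out, 366 to 800 of all 22180 genes fell and 199 to 478 rose. The mean of 9 oligodendrocyte lineage markers was 8.81 to 9.46 in knockout and 9.49 to 9.56 in wild type. All 9 changes lay below 0, with a median of -0.39. Mog fell by 0.71 and the other 8 did not pass. Mog did not pass when knockout replicate 1 or 3 or wild-type replicate 1 or 2 was left out (adjusted p from 0.0851 to 0.156), and without the arrays with high Ttr its change was -0.24 (adjusted p = 0.648). The low knockout means of this list were on arrays 1 and 3 (9.10 and 8.81), which had high Ttr. Knockout array 2 was at 9.46, against 9.49 on both wild-type arrays with low Ttr. Wild-type array 1, which also had high Ttr, had the highest mean of this list, 9.56. A link between Ttr and this list was not tested. With knockout replicate 2 left out, 6 of these markers fell. The mean of 7 meningeal markers was 9.36 to 9.81 in knockout and 9.20 to 9.28 in wild type. Their median change was 0.31, and 0 passed with all 6 arrays. Of them 3 rose with knockout replicate 1 left out and 1 with knockout replicate 2 left out. Microglial markers were at 8.40 to 8.57 in knockout and 8.41 to 8.46 in wild type, and endothelial markers at 9.50 to 9.54 in knockout and 9.52 to 9.56 in wild type. Of 3 unipolar brush cell markers, Eomes rose by 0.51 and Calb2 fell by 0.64. Eomes did not pass when knockout replicate 1 or 3 or wild-type replicate 1 or 3 was left out (adjusted p from 0.0542 to 0.133), nor Calb2 when wild-type replicate 1 was (0.0641). Their changes were 0.26 for Eomes (adjusted p = 0.389) and -0.51 for Calb2 (adjusted p = 0.261) without the arrays with high Ttr. Choroid plexus markers averaged 6.98 to 9.22 in knockout and 6.99 to 7.64 in wild type (median change 0.93). Of 9 such markers 0 passed with all 6 arrays, and 7 rose with knockout replicate 2 left out. With the choroid plexus average as a covariate, Grin2a fell by 0.55 (limma adjusted p = 0.0486) and Grin2b by 0.45 (adjusted p = 0.0225). The part of the granule neuron, oligodendrocyte and meningeal lists in the falls of Grin2a and Grin2b was not tested.

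Partners of the receptor were taken as 5 lists by role, of which 94 of 104 genes were measured. Among them 27 fell, 1 rose and 66 did not pass, with a median change of -0.14, beside 3.94% of all genes that fell. These 27 include Slc17a7, Reln and Slc1a2, which were also counted above as cell type markers. The number that fell was 12 when wild-type replicate 1 was left out and 17 when wild-type replicate 2 was left out. It was also lower without the arrays with high Ttr, a fit with 1 knockout array. Fewer of all genes fell in these fits as well (366 to 800 with an array left out, against 875 with all 6).

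**Figure D3:**
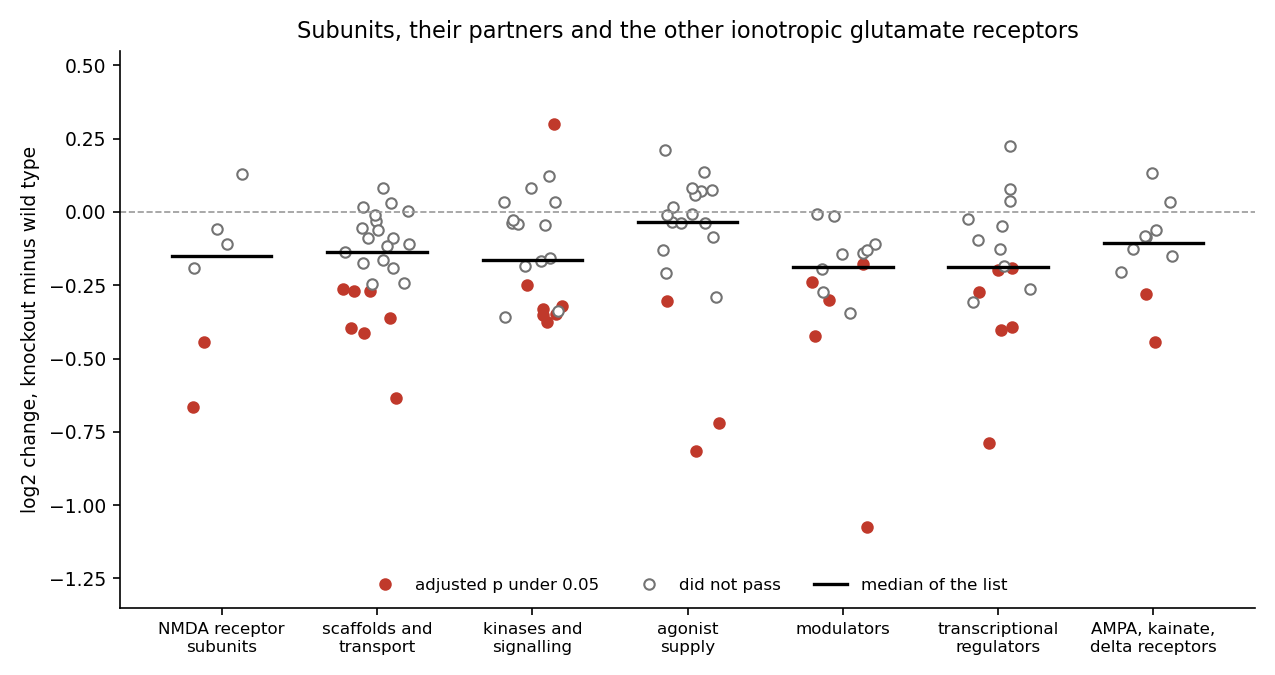
Log2 change, knockout minus wild type (vertical axis), of each measured gene in the subunit, partner and comparison lists. Filled points passed an adjusted p of 0.05, open points did not, and the bar is the list's median. Most points lie below 0, the lowest being Erbb4 at -1.07 and Slc17a7 at -0.81, and 1 filled point lies above it.

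Scaffolds and transport proteins that anchor NMDA receptors or carry them along dendrites were lower in part. Of 25 measured, 7 fell, 0 rose and 18 did not pass (median change -0.14), beside 3.94% of all genes that fell. Dlg4, which encodes PSD-95, the scaffold that binds GluN2 tails, read 9.56, 9.59 and 9.45 in knockout and 9.996, 9.997 and 9.79 in wild type. The groups lay apart, and Dlg4 fell by 0.39 (SE 0.07, limma adjusted p = 0.00856). Cask, a kinase-like scaffold of the complex that moves GluN2B cargo, fell by 0.41, and Homer2, an adaptor between glutamate receptors and Shank proteins, by 0.36. Dlgap1, which ties PSD-95 to Shank, fell by 0.27. Leaving out wild-type replicate 1 left 2 scaffold genes that fell, and the adjusted p was then 0.0517 for Dlg4 and 0.0543 for Dlgap1. Nefl, a neurofilament that binds GluN1, had the largest change of the list and is named after its value was seen. It fell by 0.63 (adjusted p = 0.00988), and its adjusted p was 0.058 when wild-type replicate 1 was left out. Without the arrays with high Ttr, 0 scaffold genes passed, and the changes of Dlg4, Cask, Homer2 and Dlgap1 were -0.31, -0.36, -0.44 and -0.26.

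Among enzymes that act on the receptor or carry its calcium signal, 6 of 20 measured fell, 1 rose and 13 did not pass (median change -0.16). Over all genes 3.94% fell and 2.72% rose. Camk2d, a calcium/calmodulin-dependent kinase, fell by 0.32 and Cdk5r1, the activator of the kinase CDK5, by 0.35. Ptpn5 (STEP), the tyrosine phosphatase that removes GluN2B from the surface, read 8.81, 8.81 and 8.67 in knockout and 9.08, 9.22 and 9.13 in wild type. Its groups lay apart, and it fell by 0.38 (SE 0.06, adjusted p = 0.00797). Ppp3ca, a catalytic subunit of calcineurin, fell by 0.25. When wild-type replicate 1 was left out, 3 genes of this list fell and Ppp3ca had an adjusted p of 0.0759. The 1 gene that rose was Dapk1, a death-associated kinase that binds GluN2B, at 0.30 (adjusted p = 0.028), named after its value was seen. Its adjusted p was 0.09 with knockout replicate 1 left out, 0.093 with wild-type replicate 2 left out and 0.066 with wild-type replicate 3 left out. Without the arrays with high Ttr, 0 of these genes passed.

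For the supply of glutamate, glycine and D-serine, 3 of 19 measured genes fell, 0 rose and 16 did not pass (median change -0.04). The share of all genes that fell was 3.94%. Slc17a7, which encodes VGLUT1, the vesicular glutamate transporter of granule neurons, read 8.72, 8.90 and 8.97 in knockout and 9.72, 9.63 and 9.68 in wild type. It fell by 0.81 (SE 0.07, adjusted p = 0.000286), and the groups lay far apart. Slc17a6 (VGLUT2), the transporter of immature granule neurons and climbing fibres, read 9.97, 9.94 and 9.91 in knockout and 10.64, 10.80 and 10.53 in wild type, and fell by 0.72 (SE 0.07, adjusted p = 0.000385). Both passed whichever array was left out and without the arrays with high Ttr. Slc1a2, a glial glutamate transporter, fell by 0.30 (adjusted p = 0.0393). Its adjusted p ran from 0.0684 to 0.162 when knockout replicate 2 or 3 or any wild-type array was left out, and was 0.257 without the arrays with high Ttr.

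Of 14 measured modulators of NMDA receptor function, 5 fell, 0 rose and 9 did not pass (median change -0.19). Over all genes 3.94% fell. Erbb4, the neuregulin receptor that associates with PSD-95, read 9.77, 9.78 and 9.58 in knockout and 10.71, 10.87 and 10.77 in wild type. It fell by 1.07 (SE 0.07, adjusted p = 4.98e-05) and passed in all alternatives tried. Ephb1, an ephrin receptor, fell by 0.42 (adjusted p = 0.0588 for its second probe set), and Ntrk2 (TrkB), the receptor for BDNF, by 0.30. Vldlr, a Reelin receptor, fell by 0.24, and Reln, its ligand, which granule neurons secrete, by 0.18. Reln is named after its value was seen. Leaving out knockout replicate 1 or wild-type replicate 1 or 2 left 2 modulators that fell, and leaving out knockout replicate 3 left 3. Ntrk2 and Vldlr did not pass in the first 3 of those fits (adjusted p from 0.0574 to 0.112), nor Vldlr in the last (0.0551). Reln did not pass whichever array was left out (adjusted p from 0.0509 to 0.167). Erbb4 was the 1 modulator gene that passed without the arrays with high Ttr.

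Of 16 measured transcription factors and signalling genes known to regulate subunit expression or CREB, 6 fell, 0 rose and 10 did not pass (median change -0.19). The share of all genes that fell was 3.94%. Camk4, the nuclear calmodulin-dependent kinase that phosphorylates CREB, read 9.97, 9.95 and 10.02 in knockout and 10.70, 10.87 and 10.73 in wild type. It fell by 0.79 (SE 0.06, adjusted p = 9.50e-05), and its groups lay far apart. A second probe set of Camk4 had a change of -0.32 (adjusted p = 0.0545 when each probe set was tested on its own). Nuclear factor I proteins drive granule neuron maturation, and Nfix fell by 0.39, Nfic by 0.40 and Nfib by 0.27. When wild-type replicate 1 was left out, 3 of these genes fell and Nfib had an adjusted p of 0.0663. A second probe set of Nfix had a change of -0.40 (adjusted p = 0.098). Without the arrays with high Ttr, 1 gene of this list passed, Camk4.

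The other ionotropic glutamate receptors, the AMPA, kainate and delta subunits, were set beside the NMDA receptor subunits. Of 10 measured, 2 fell, 0 rose and 8 did not pass (median change -0.11), against 2 of 6 NMDA receptor genes (median change -0.15). Over all genes 3.94% fell. Grik2, a kainate receptor subunit, read 10.93, 10.99 and 11.13 in knockout and 11.33, 11.52 and 11.52 in wild type, and fell by 0.44 (SE 0.07, adjusted p = 0.00461). Gria4, an AMPA receptor subunit, read 11.55, 11.59 and 11.43 in knockout and 11.74, 11.87 and 11.81 in wild type, and fell by 0.28 (SE 0.06, adjusted p = 0.016). Its adjusted p was 0.0617 when wild-type replicate 2 was left out, and 1 gene of the list fell then, as it did without the arrays with high Ttr. Whether the NMDA receptor genes differ from these as a family was not tested.

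CREB binds the cyclic AMP response element, TGACGTCA, or its core TGACG, and promoters from RefSeq (GRCm38.p6, 250 bases before to 50 bases after a start) were searched for both on both strands. Among the subunits, the promoters of Grin2c, Grin2d and Grin3b held neither motif. The promoter of Grin1, whose expression was not analysed here, held the core at position -31 and again closer to the start. Promoters of Grin2a, Grin2b and Grin3a were not searched. Promoters of 21 of the 27 partner genes that fell were searched, 34 in all. Of these 0 held the full element and 5 (14.7%) held the core, against 1.79% and 20.8% of all 32851 promoters. Counted by gene, 5 of the 21 (23.8%) had a promoter with the core, a share that genes with several listed promoters raise. The promoters of Dlg4 and Ephb1 are shown because both proteins bind NMDA receptors, both genes fell and both promoters hold the core, which is in capitals on either strand. It begins at position -76 relative to the start in Dlg4, where the other 2 listed promoters lack it, and at -3 in Ephb1.
Dlg4, chr11:70023732-70024031, plus strand: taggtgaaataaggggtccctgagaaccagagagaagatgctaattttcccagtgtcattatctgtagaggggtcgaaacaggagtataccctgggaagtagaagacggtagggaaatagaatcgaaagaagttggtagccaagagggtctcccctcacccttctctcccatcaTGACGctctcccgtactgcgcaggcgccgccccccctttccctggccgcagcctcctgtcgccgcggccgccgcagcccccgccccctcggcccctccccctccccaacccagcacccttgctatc
Ephb1, chr9:102354644-102354943, minus strand: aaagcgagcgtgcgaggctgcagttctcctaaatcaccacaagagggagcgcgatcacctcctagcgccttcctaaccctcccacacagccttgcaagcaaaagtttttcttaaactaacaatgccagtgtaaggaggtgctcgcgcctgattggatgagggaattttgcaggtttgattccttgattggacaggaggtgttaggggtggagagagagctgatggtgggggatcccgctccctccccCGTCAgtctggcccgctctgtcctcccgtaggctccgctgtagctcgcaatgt

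**Figure D4:**
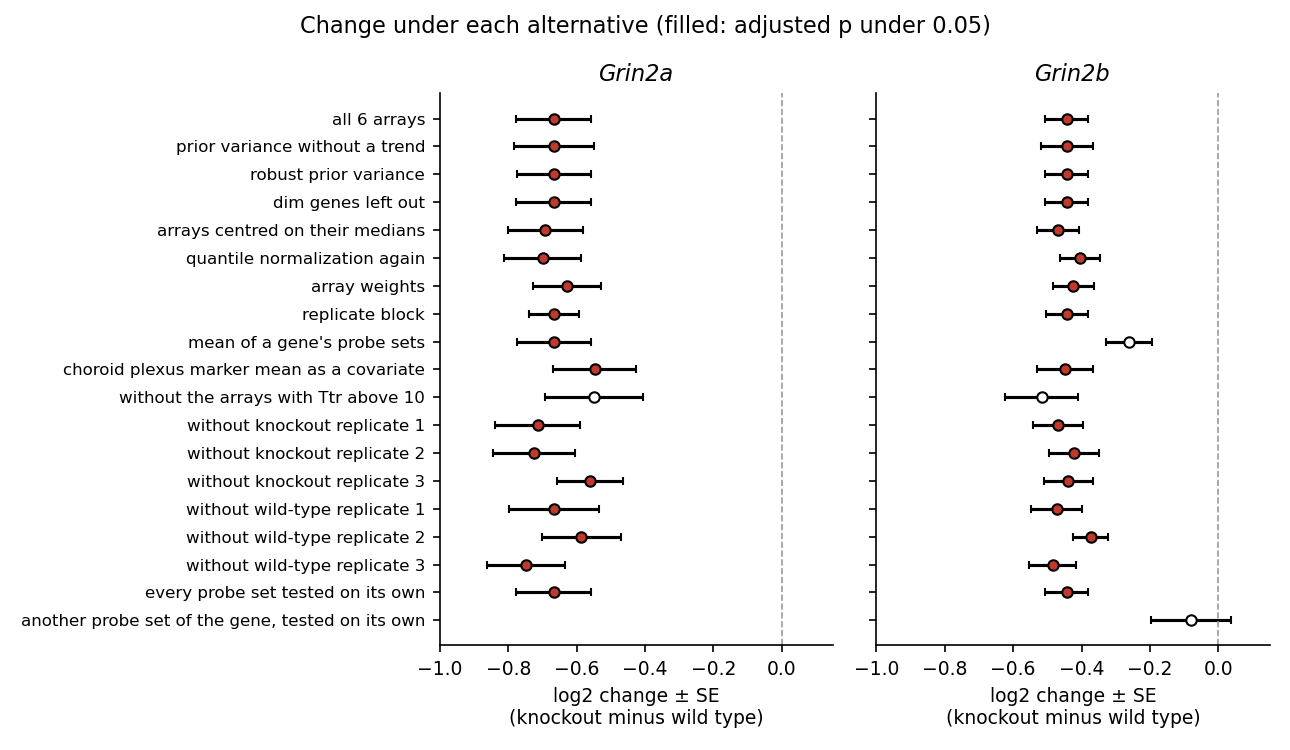
Log2 change ± SE, knockout minus wild type (horizontal axis), of Grin2a and Grin2b with all 6 arrays and under each alternative. Filled points passed an adjusted p of 0.05. All points lie below 0. Those that did not pass are the fits without the arrays with Ttr above 10 (-0.55 for Grin2a and -0.52 for Grin2b) and, for Grin2b, the averaged probe sets (-0.26) and the dimmer probe set (-0.080).

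Grin2a and Grin2b passed whichever single array was left out. The change ran from -0.75 to -0.56 for Grin2a and from -0.48 to -0.37 for Grin2b over those 6 fits.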

How the data were processed

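The authors deposited 1 log2 value for each probe set on each array. The submitters' processing notes name RMA and oligo with no version, and labelling used the GeneChip WT PLUS kit per the labels' protocols. The sources used here give no genome build and no filter. The log2 values were used as deposited. Of 41345 probe sets, GEO's platform annotation gave 1 symbol to 23521, several to 1814 and none to 16010. The brightest probe set of each of 22180 genes was fitted with limma 3.58.1 in R 4.3.3 (lmFit, eBayes with a trended prior variance), with two-sided p-values adjusted by Benjamini-Hochberg over all genes. The code of the fit was checked on simulated arrays with independent noise and planted changes. Those arrays hold no difference in tissue composition, so the check does not cover it. Tables and plots used Python 3.11.15, pandas 2.3.3, scipy 1.17.1 and matplotlib 3.10.9. No detection call was used, and precision is limited by having 3 arrays a group. The members and lists were chosen with earlier results of these data known. Named are Crebbp, all members, up to 4 genes of each partner list and 2 of each cell type list with the smallest p, and 3 genes with the profile nearest to each member that passed. Of the 2 genes so taken from each cell type list, the text names those a sentence turns on. The repeats of the cell type list counts and of Dapk1, Nefl and Reln under the alternatives were added after seeing the data. Same-numbered arrays did not deviate together (r = 0.01, 0.03 and -0.13), and the main fit did not pair them. With 3 arrays a group, these correlations cannot exclude a pairing.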

Additional observations from a re-analysis of the deposited data

How the results depend on the processing

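The directions of Grin2a, Grin2b and Grin3a were kept in all alternatives run, and those of Grin2c, Grin2d and Grin3b, which did not pass with 6 arrays, were not. Without the arrays with Ttr above 10, 0 subunit genes passed (Grin2a -0.55, Grin2b -0.52, Grin2c -0.035, Grin2d 0.050), 4 partner genes fell and 0 rose, and 112 genes rose and 124 fell in all. That fit holds 3 of the 6 arrays. With a gene's probe sets averaged, 1 subunit gene fell, Grin2b changed by -0.26, and the ratio shifts were -0.40 (Grin2a to Grin2b) and 0.32 (Grin2c to Grin2b). The dimmer probe sets changed by -0.080 (Grin2b), -0.012 (Grin2c) and 0.0091 (Grin2d). A prior variance without a trend gave 184 rises and 310 falls, with 11 partner genes fallen and 0 risen, and kept both subunit calls. The choroid plexus covariate gave 311 rises and 350 falls, with 11 partner genes fallen and 0 risen. With each array left out in turn, 199 to 478 genes rose and 366 to 800 fell, 12 to 26 partner genes fell and 0 to 1 rose, and Grin3b ranged from -0.15 to 0.030, being 0.030 without knockout replicate 2 and 0.013 without wild-type replicate 1. With the replicate number as a block, the same 2 subunit genes fell (Grin2a -0.67, Grin2b -0.44), 36 partner genes fell and 2 rose, and 723 genes rose and 1078 fell. The cause of these differences was not tested. Dim genes have no detection call, so small changes at low signal are not resolved.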
